A study of Caenorhabditis elegans with 36 samples.

Results

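The solvent controls of this study were 8 of its 36 whole-worm RNA-seq libraries: the 4 libraries labelled DMSO in batch 2 and the 4 labelled DMSO in batch 1, taken by their labels and not by any measured value. The series, titled for terbinafine, miglustat and mitochondrial stress responses in Caenorhabditis elegans, has a DMSO group in each of 2 batches, and the comparison of those groups holds no treatment. Both groups were day 1 adults of strain N2, the standard laboratory wild type, maintained at 20 °C. About 3000 larvae of the first stage (L1) had been filtered out and moved to plates seeded with HT115 bacteria that carried an empty vector (ev). The plates held 2 mM IPTG, carbenicillin, 10 µM 5-FU (5-fluorouracil, an inhibitor of thymidylate synthesis) and the solvent DMSO. The labels give 4 biological replicates a group. By the labels the groups differ in batch alone, and what a batch was (a culture, an extraction or a sequencing run) is not given, so these cannot be told apart here.

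A day 1 adult hermaphrodite of C. elegans no longer molts. Its germ line has switched from sperm to oocytes, its intestine makes the yolk proteins (vitellogenins) that oocytes take up, and its uterus can hold embryos that build their own tissues and a first cuticle. Whole-worm RNA sums all of these. Collagens and cuticlins form the cuticle and are made by the epidermis in waves before each molt, and major sperm proteins are made only in developing sperm. In such bulk samples, more or fewer cells of a type and more or less RNA per cell cannot be told apart.

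Of 14093 genes that passed the filter on low counts, 3633 differed between the DMSO groups (25.8%) by edgeR's quasi-likelihood test at a Benjamini-Hochberg adjusted p below 0.05. In batch 2, 2108 were higher (15%) and 1525 lower (10.8%), and 1402 of the higher genes but only 298 of the lower genes passed 2-fold. The 4 libraries of batch 2 lay all above or all below those of batch 1 for 4141 genes (29.4%), and the median log2 fold change of all genes was 0.02. Here and below, higher and lower refer to batch 2 relative to batch 1, levels are CPM (counts of a gene relative to all counts of its library, scaled by the TMM method), and a group of genes is described by how many tested members were called each way against these percentages. The count depended on the libraries: it was 2246 without batch 2 replicate 2, 2307 without batch 1 replicate 2, 2220 without batch 1 replicate 3 and 4790 without batch 2 replicate 1. No gene called with all 8 libraries had the opposite sign in any of these fits. The same 8-library fit of each treatment against its own DMSO group called 0.289% of genes for miglustat, 1.32% for terbinafine, 28.4% for brequinar, 32.2% for teriflunomide, 48.7% for BAY2402234, 53.5% for dhod-1 RNAi and 82.6% for doxycycline, so that more genes were called between the 2 solvent groups than between miglustat or terbinafine and their solvent.

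The libraries were of like depth, between 19852272 and 20435253 counts, and their first principal component, with 60.9% of the variance over 9012 genes at 5 CPM or more, separated the batches. The second, with 25.8%, set replicate 1 of batch 2 apart: it lay at -52.5, and the other 7 libraries between -6.49 and 22.8. Within batch 2, replicates 2 and 4 lay together on both components, and on the first component replicates 1 and 3 lay nearer to batch 1. Every pair of replicates differed by more than sampling noise, with chi-square values of 6.16 or more for each degree of freedom.

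**Figure D1:**
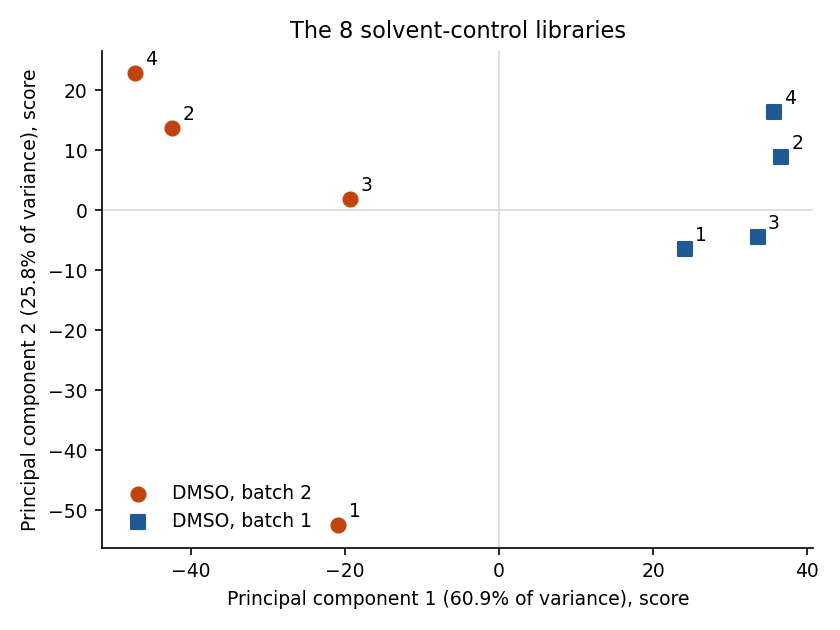
Scores of the 8 solvent-control libraries on the first (horizontal) and second (vertical) principal components of log2 CPM, batch 2 as red circles and batch 1 as blue squares, with replicate numbers. The first component, 60.9% of the variance, separates the batches, and the second, 25.8%, sets replicate 1 of batch 2 apart from the other 7 libraries.

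The genes with the largest rises, named by rank among genes of at least 5 CPM in one group, were nearly silent in batch 1. The gene hil-7 (WBGene00001858; chromosome IV, 6646312 to 6646972, build WBcel235), a linker histone-like gene, had 36.3, 119, 55.2 and 134 CPM in batch 2, against 0.659, 0.608, 0.537 and 0.527 CPM in batch 1 (log2 fold change 7.19 with an SE of 0.55, adjusted p = 0.000494). The collagen gene col-165 (WBGene00000738; chromosome X, 4353618 to 4354852) stood at 14.4, 95.7, 38.2 and 108 CPM in batch 2, against 0.101, 0, 0 and 0.105 CPM in batch 1. The col-165 log2 fold change was 10.11 (SE 1.03, adjusted p = 0.00102). The zinc-finger transcription factor gene egl-46 (WBGene00001210; chromosome V, 6679123 to 6681573) had 11.4, 27.7, 12.1 and 29 CPM in batch 2, against 0.253, 0.152, 0.161 and 0 CPM in batch 1 (log2 fold change 7.08 with an SE of 0.63, adjusted p = 0.000575). All 4 libraries of batch 2 lay above all 4 of batch 1 for each of them, and replicates 2 and 4 held the highest values. The other 7 of the 10 largest rises had the same 2 highest libraries: pqn-73 (log2 fold change 7.63), the intermediate filament gene ifa-3 (6.83), the cuticlin gene cut-3 (6.70), the DSL-family gene dsl-6 (6.42), glf-1 (6.38), which makes a precursor of surface sugars, the collagen gene col-74 (5.98) and rocf-1 (5.92). Folds of this size rest on batch 1 levels near 0 and are imprecise. Over all 2108 genes called higher, replicates 2 and 4 were the highest pair of batch 2 in 1284 (60.9%). They were so in 26.3% of the 9012 genes at 5 CPM or more.

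Genes of the epidermal apical matrix and of molting were called higher far more often than the 15% of all genes. Of 26 tested cuticlins, zona pellucida-domain proteins of the cuticle, 18 were higher and none lower (median log2 fold change 1.47), and 14 were called higher without batch 2 replicate 2. Together they took 0.0136, 0.0261, 0.0111 and 0.0286% of counts in batch 2, against 0.00362, 0.00309, 0.00338 and 0.00328% in batch 1, with no overlap between the groups. Of 30 tested molting genes 19 were higher and 1 was lower. The gene fbn-1, a fibrillin-like matrix gene (WBGene00022816; chromosome III, 7625386 to 7641078), had 36, 64.6, 38.9 and 76.9 CPM in batch 2, against 5.67, 5.07, 4.57 and 6.38 CPM in batch 1. The fbn-1 log2 fold change was 3.32 (SE 0.28, adjusted p = 0.000494). The gene noah-1, a matrix component of the embryonic and larval epidermis, had 74.1, 156, 84.4 and 185 CPM in batch 2, against 19.7, 15.2, 10 and 21.8 CPM in batch 1 (log2 fold change 2.90 with an SE of 0.37, adjusted p = 0.00187). The gene mlt-8 had 26.4, 39.3, 19.7 and 42.8 CPM in batch 2, against 2.94, 1.92, 2.42 and 1.74 CPM in batch 1. The mlt-8 log2 fold change was 3.83 (SE 0.30, adjusted p = 0.000437). The gene mlt-10 was higher as well, with 30.3, 23.9, 18.7 and 27.4 CPM in batch 2, against 8.92, 10.9, 8.59 and 10.3 CPM in batch 1. The exception was nas-37, a protease used to shed the old cuticle, which was lower, with 16.3, 17.8, 12.4 and 22.2 CPM in batch 2, against 29.3, 24.8, 30.4 and 29.4 CPM in batch 1 (log2 fold change -0.73 with an SE of 0.17, adjusted p = 0.0146). Thus 3 of the 4 markers listed for the molting epidermis of larvae were higher and the other one lower, and what part larvae or embryos had in these libraries was not tested.

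The secreted signalling-like proteins of the epidermis and the lining of the pharynx were also often higher. Among hedgehog-related genes, secreted proteins that worms have in place of a true hedgehog, 14 of 32 were higher and 2 lower, and 9 were lower without batch 2 replicate 1. The gene wrt-1 had 11.3, 23.1, 9.52 and 23.7 CPM in batch 2, against 1.32, 0.506, 0.483 and 0.317 CPM in batch 1. The wrt-1 log2 fold change was 4.67 (SE 0.52, adjusted p = 0.00125). The gene grl-7 had 16.4, 19.9, 9.47 and 21.2 CPM in batch 2, against 0.709, 0.355, 0.322 and 0 CPM in batch 1. Among their patched-related transmembrane partners 13 of 25 were higher and none lower, with 3 lower without batch 2 replicate 1. The gene ptr-25 had 11.8, 36.1, 18.3 and 41 CPM in batch 2, against 1.37, 1.22, 1.29 and 0.949 CPM in batch 1 (log2 fold change 4.47 with an SE of 0.43, adjusted p = 0.000843). Of the abu genes and their relatives, which encode proteins of the pharyngeal cuticle, 11 of 24 were higher, 6 without batch 1 replicate 2. The gene abu-14 had 65, 45.3, 18 and 42.6 CPM in batch 2, against 6.13, 2.18, 3.38 and 0.791 CPM in batch 1, all 4 batch 2 libraries above all 4 of batch 1.

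The cuticle collagens split. Of 128 tested, 23 were higher (18%) and 1 lower, a share near that of all genes, yet their median log2 fold change was 1.50. That median rested on 1 library: without batch 2 replicate 1 it was 0.04, with 21 members higher and 17 lower. Those called higher had all 4 batch 2 libraries above batch 1 in the examples that follow. The gene sqt-3, a collagen with a role from the embryo on (WBGene00005018; chromosome V, 12352745 to 12354320), had 109, 222, 98.6 and 270.3 CPM in batch 2, against 6.79, 4.41, 4.94 and 3.11 CPM in batch 1. The sqt-3 log2 fold change was 5.18 (SE 0.43, adjusted p = 0.000533). The gene dpy-10, which shapes the body, had 33.3, 86.3, 44.8 and 98.6 CPM in batch 2, against 6.38, 3.9, 4.19 and 4.22 CPM in batch 1 (log2 fold change 3.81 with an SE of 0.39, adjusted p = 0.00104). The gene col-99, a transmembrane collagen of neurons and muscle rather than of the cuticle, had 16.9, 19.3, 15.7 and 23.5 CPM in batch 2, against 4.96, 5.01, 4.83 and 6.12 CPM in batch 1. The col-99 log2 fold change was 1.85 (SE 0.17, adjusted p = 0.000517). The gene col-19, the marker collagen of the adult cuticle, had 789, 303, 552 and 185 CPM in batch 2, against 589, 524, 661 and 563 CPM in batch 1 and did not pass (adjusted p = 0.525).

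**Figure D2:**
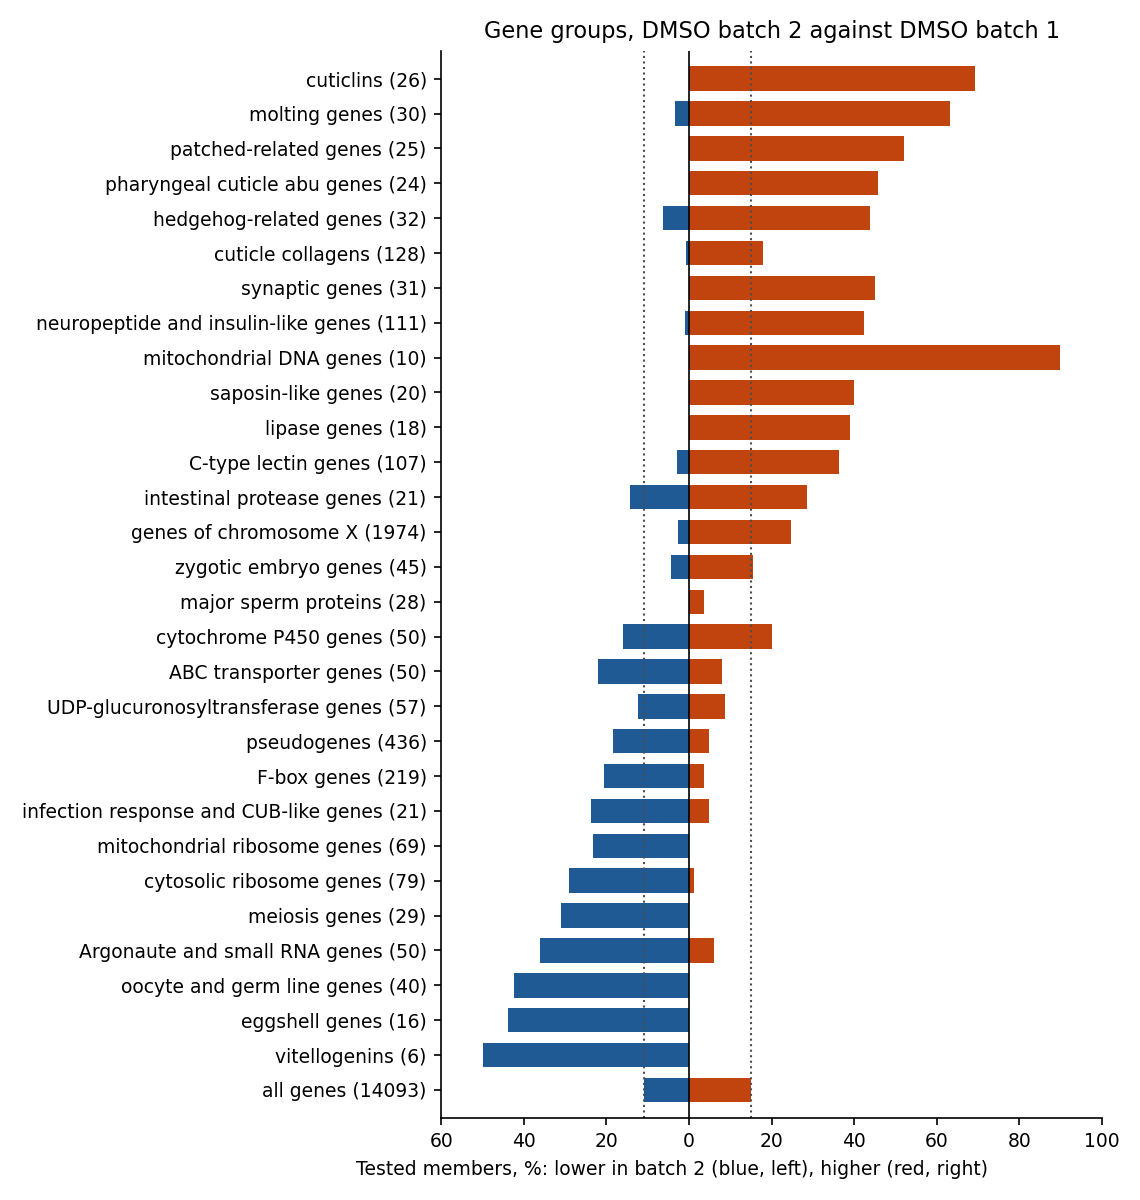
Percentage of tested members of each gene group called lower (blue bars to the left) or higher (red bars to the right) in DMSO batch 2 than in DMSO batch 1, with the number tested in brackets and dotted lines at the 10.8% lower and 15% higher of all genes. Cuticlins, molting genes and mitochondrial DNA genes were mostly higher, and members of the vitellogenin, eggshell and germ line lists were called lower or not called.

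Some regulators of embryonic organ identity were among the higher genes, although genes first made by the embryo were not called more often than others. Of 45 tested genes first made by the embryo, 7 were higher and 2 lower, close to the share of all genes. The higher ones numbered 3 without batch 2 replicate 2 and 13 without batch 2 replicate 1. The gene pha-4, the FoxA factor of pharynx and gut, had 22.9, 36.4, 23.7 and 44.8 CPM in batch 2, against 11.1, 8.91, 8.54 and 10.9 CPM in batch 1 (log2 fold change 1.69 with an SE of 0.23, adjusted p = 0.00191). The gene hlh-1, the MyoD homologue of body wall muscle, had 3.81, 6.42, 5.98 and 7.8 CPM in batch 2, against 1.62, 1.52, 1.45 and 1.85 CPM in batch 1. The hlh-1 log2 fold change was 1.90 (SE 0.25, adjusted p = 0.00176). The gene unc-120, a serum response factor of muscle, had 9.25, 16.5, 9.71 and 14.3 CPM in batch 2, against 5.37, 4.66, 4.35 and 4.85 CPM in batch 1 (log2 fold change 1.37 with an SE of 0.22, adjusted p = 0.00302). All 3 also act outside the early embryo. Muscle genes as a list were not called higher more often than all genes. Of 44 tested, 7 were higher (15.9%) and none lower, with a median log2 fold change of 0.07. Without batch 2 replicate 1, 16 were lower. The markers listed for muscle, unc-54, myo-3, unc-15 and tnt-2, each had groups that overlap. For unc-54 these were 2674, 1588, 1962 and 1473 CPM in batch 2, against 2687, 1981, 2521 and 2769 CPM in batch 1. By contrast the Notch ligand gene apx-1, which oocytes pass on as RNA, was lower, with 154, 140.1, 159 and 139 CPM in batch 2, against 188, 194, 189 and 182 CPM in batch 1. The apx-1 log2 fold change was -0.35 (SE 0.06, adjusted p = 0.00409). The 4 markers listed for the early embryo, end-3, med-1, tbx-37 and sdz-1, reached at most 0.785 CPM (tbx-37 in batch 2 replicate 3) in any of the 8 libraries, and med-1 was at 0 in 6 of them. Of the histone genes 5 of 27 were higher and none lower, among them the linker histone gene his-24 with 22.8, 45.1, 30.1 and 51.2 CPM in batch 2, against 9.22, 12.9, 9.51 and 13.7 CPM in batch 1 (log2 fold change 1.72 with an SE of 0.27, adjusted p = 0.00355).

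Among neuronal lists, those of peptides and synapses had many members called higher, and that of chemoreceptors had not. Of 72 tested chemoreceptor genes 12 were higher and 10 lower, with a median log2 fold change of 0.00. Of 111 tested genes for neuropeptides and insulin-like peptides 47 were higher (42.3%) and 1 lower, with a median log2 fold change of 0.72, and 26 were higher without batch 1 replicate 2. The gene flp-6, an FMRFamide-like peptide gene, had 14.1, 13.5, 13.4 and 16.21 CPM in batch 2, against 8.92, 7.6, 7.9 and 8.81 CPM in batch 1. The flp-6 log2 fold change was 0.78 (SE 0.13, adjusted p = 0.00324). The insulin-like gene ins-2 had 1.14, 2.5, 1.86 and 3.02 CPM in batch 2, against 0.0507, 0.0507, 0.269 and 0.0527 CPM in batch 1 (log2 fold change 4.27 with an SE of 0.58, adjusted p = 0.00187). Of 31 synaptic genes 14 were higher and none lower, 8 without batch 2 replicate 4. The gene egl-3, the convertase that cuts neuropeptide precursors, had 104, 87.5, 73.3 and 103 CPM in batch 2, against 65.2, 42.2, 43 and 53.8 CPM in batch 1. The egl-3 log2 fold change was 0.85 (SE 0.17, adjusted p = 0.00806). The presynaptic calcium channel gene unc-2 had 27.1, 28.9, 22.4 and 30.1 CPM in batch 2, against 15.5, 13.3, 15.1 and 14.5 CPM in batch 1 (log2 fold change 0.89 with an SE of 0.12, adjusted p = 0.00159). The gene snb-1, the synaptobrevin gene, had 192, 209.9, 216 and 205 CPM in batch 2, against 218, 205, 212 and 212 CPM in batch 1, groups that overlap, and did not pass (adjusted p = 0.585).

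Digestive and defence lists, with many genes made in the intestine, differed among themselves. Members of the lectin, lipase and saposin-like lists were often called higher, while of 18 pals genes 1 was higher and 3 lower and of 12 galectin genes 1 was higher. Among C-type lectins, secreted sugar-binding proteins often induced by bacteria, 39 of 107 were higher (36.4%) and 3 lower, 11 without batch 2 replicate 1. The gene clec-78 had 28, 68.1, 31.5 and 70.5 CPM in batch 2, against 1.22, 0.81, 0.806 and 1 CPM in batch 1. The clec-78 log2 fold change was 5.68 (SE 0.41, adjusted p = 0.000375). The gene clec-150 had 162, 145, 162 and 174 CPM in batch 2, against 80.4, 59.5, 62 and 76.4 CPM in batch 1 (log2 fold change 1.21 with an SE of 0.11, adjusted p = 0.000514). Of 21 intestinal protease genes 6 were higher and 3 lower, with 11 higher without batch 2 replicate 1 and 1 lower without batch 2 replicate 2. The cathepsin B-like protease gene cpr-4 (WBGene00000784; chromosome V, 6614674 to 6615851) had 107, 267, 189.8 and 439 CPM in batch 2, against 37.2, 18.8, 25.1 and 31.2 CPM in batch 1. The cpr-4 log2 fold change was 3.16 (SE 0.44, adjusted p = 0.00241). Its relative cpr-5 had 199.7, 206, 279.8 and 202 CPM in batch 2, against 88, 83.3, 95.3 and 67.8 CPM in batch 1 (log2 fold change 1.41 with an SE of 0.14, adjusted p = 0.000845). The aspartyl protease gene asp-14 went the other way, with 93.3, 61.1, 64.7 and 61.4 CPM in batch 2, against 177, 139, 207 and 193 CPM in batch 1. The asp-14 log2 fold change was -1.35 (SE 0.17, adjusted p = 0.0017). Of 18 lipase genes 7 were higher and none lower, with lipl-3, a lysosomal lipase made in fasting, at 2.03, 7.06, 2.21 and 5.62 CPM in batch 2, against 0.608, 0.506, 0.752 and 0.475 CPM in batch 1 (log2 fold change 2.84 with an SE of 0.47, adjusted p = 0.0039). Of 20 saposin-like genes 8 were higher and none lower, 5 without batch 2 replicate 2. The gene elt-2, the GATA factor that defines the intestine, had 11.1, 15, 8.78 and 13 CPM in batch 2, against 6.48, 6.69, 7.04 and 6.28 CPM in batch 1. The elt-2 log2 fold change was 0.86 (SE 0.18, adjusted p = 0.00949). The 4 intestine markers went both ways: elt-2 and the esterase gene ges-1 (adjusted p = 0.0439) were higher, vit-6 was lower, and act-5 did not pass (adjusted p = 0.444). The call of ges-1 held in 2 of the 8 fits that left out 1 library, with an adjusted p of 0.113 without batch 2 replicate 2.

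Yolk protein genes took a smaller share of the RNA of batch 2. All 6 vitellogenins together made up 6.2, 6.73, 6.86 and 5.83% of counts in batch 2, against 8.33, 8.74, 8.15 and 8.68% in batch 1. The gene vit-2 had 18156, 21665, 20307 and 21039 CPM in batch 2, against 27153, 28621, 28459 and 28848 CPM in batch 1 (log2 fold change -0.48 with an SE of 0.08, adjusted p = 0.00469). The gene vit-5 had 12395, 15557, 14139.5 and 14166 CPM in batch 2, against 17561, 19334, 18242 and 19476 CPM in batch 1. The vit-5 log2 fold change was -0.41 (SE 0.09, adjusted p = 0.0127). The gene vit-6 had 18963, 19169, 20642 and 16602 CPM in batch 2, against 28591, 28739.8, 28630.4 and 29015 CPM in batch 1 (log2 fold change -0.61 with an SE of 0.09, adjusted p = 0.00221). Those 3 were lower with any 1 library left out. The other 3, vit-1, vit-3 and vit-4, did not pass, and their batch 2 libraries spread widely. The gene vit-1 (WBGene00006925; chromosome X, 7727889 to 7733168) had 4601, 903, 3688 and 163 CPM in batch 2, against 4431, 5235, 4291 and 4391 CPM in batch 1 (adjusted p = 0.392). The gene vit-4 had 3114, 2096, 3608 and 680.1 CPM in batch 2, against 3408, 3181, 3714 and 3874 CPM in batch 1. The gene vit-3 had 4414, 3173, 5005 and 1440.1 CPM in batch 2, against 4402, 5335, 4374 and 5280.2 CPM in batch 1. In these 3 genes replicate 4 of batch 2 was the lowest of all 8 libraries. The vitellogenins are close copies, so their reads may be divided unevenly, which the sum avoids.

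Some genes of oocytes, the eggshell and meiosis were called lower, and none of the 3 lists had a member called higher. All tested members of these lists were at 5 CPM or more. Of all genes in the highest of 4 equal groups by mean level, 23.5% were lower and 3.775% higher. The counts of the 3 lists changed with the libraries used. So did the count of all genes called lower, with 789 without batch 2 replicate 2 and 2083 without batch 2 replicate 3. Of 40 oocyte and germ line genes 17 were lower and none higher (median log2 fold change -0.26). The lower ones numbered 27 without batch 2 replicate 3. They numbered 7 without batch 2 replicate 2 or 4, or without batch 1 replicate 2, 3 or 4, in each case with 1 library left out. The median of the list stayed between -0.33 and -0.19 with any 1 library left out. The gene glh-1, a helicase of germ granules, had 327, 289, 290.0 and 281 CPM in batch 2, against 398, 425, 490.4 and 455 CPM in batch 1. The glh-1 log2 fold change was -0.57 (SE 0.08, adjusted p = 0.00209). The gene pgl-1, another granule component, had 371, 358, 384 and 345 CPM in batch 2, against 465, 490.1, 519 and 469.6 CPM in batch 1 (log2 fold change -0.41 with an SE of 0.06, adjusted p = 0.00245). The gene gld-2, a poly(A) polymerase, had 249, 249, 247 and 240.0 CPM in batch 2, against 309, 362, 326 and 300.0 CPM in batch 1. The gld-2 log2 fold change was -0.40 (SE 0.07, adjusted p = 0.00399). For each of these 3 genes the groups did not overlap. Of 16 eggshell genes 7 were lower and none higher, a count that was 0 without batch 2 replicate 2 or without batch 1 replicate 2 and 14 without batch 2 replicate 3. The gene cbd-1, a chitin-binding eggshell protein, had 2472, 2024, 2820.0 and 1966 CPM in batch 2, against 3147, 3349, 3208 and 3192 CPM in batch 1 (log2 fold change -0.47, adjusted p = 0.0192, and 0.0577 without batch 2 replicate 2). Of 29 meiosis genes 9 were lower and none higher, with 5 lower without batch 2 replicate 2 and 15 without batch 2 replicate 3. Of 50 Argonaute and small RNA genes 18 were lower and 3 higher, with 9 lower without batch 1 replicate 3. The gene wago-4, a germ line Argonaute, had 113, 109, 107 and 115 CPM in batch 2, against 133, 147, 149 and 144 CPM in batch 1 (log2 fold change -0.37 with an SE of 0.05, adjusted p = 0.0023). The ribonucleotide reductase gene rnr-1 had 379, 372, 461 and 341 CPM in batch 2, against 509.8, 570.4, 558 and 613 CPM in batch 1. The rnr-1 log2 fold change was -0.54 (SE 0.10, adjusted p = 0.00612).

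Ribosomal protein genes were lower more often than all genes, and here too the counts changed with the libraries used. Of 79 tested for the cytosolic ribosome, 23 were lower and 1 higher, but the count of lower members was 1 without batch 2 replicate 2 and 40 without batch 2 replicate 1. The gene rla-0, a stalk protein gene, had 2983, 2434, 2414 and 2838 CPM in batch 2, against 3870.3, 3858, 4669 and 4123 CPM in batch 1 (log2 fold change -0.63 with an SE of 0.10, adjusted p = 0.00334), while rpl-3 had 3447, 3162, 2938 and 3298 CPM in batch 2, against 2925, 2859, 3487 and 3215 CPM in batch 1 and did not pass (adjusted p = 0.755). Of 69 mitochondrial ribosome genes 16 were lower (23.2%) and none higher, 4 without batch 2 replicate 2. The direction of a change went with the level of the gene. Of the 3523 genes in the highest of 4 equal groups by mean level, 133 were higher and 829 lower (23.5%). The share of lower mitochondrial ribosome genes was near that. Of the 3524 genes in the lowest group, 693 were higher and 167 lower. CPM values are relative to the other counts of a library, also after TMM scaling, and absolute amounts were not measured. Why the direction went with the level was not tested.

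**Figure D3:**
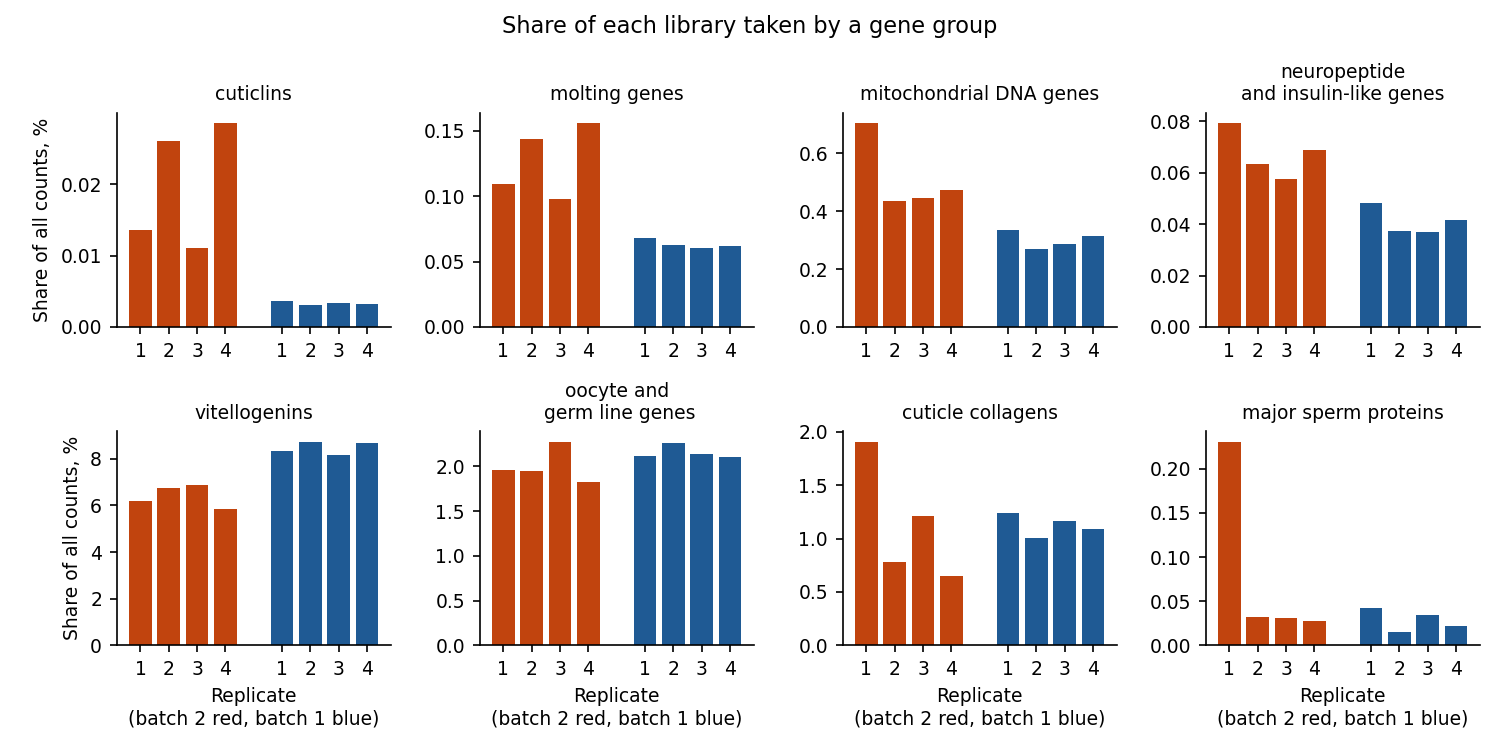
Share of all counts of a library, in percent, taken by each of 8 gene groups, with 1 bar per library (replicates 1 to 4; batch 2 in red on the left, batch 1 in blue on the right). Cuticlins, molting genes, mitochondrial DNA genes and neuropeptide genes are higher in every batch 2 library and vitellogenins lower, and replicate 1 of batch 2 stands above the rest for collagens and major sperm proteins.

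Nearly all genes of the mitochondrial genome were called higher with all 8 libraries. Of 10 tested protein-coding genes of mitochondrial DNA, 9 were higher, and these genes together took 0.703, 0.435, 0.446 and 0.473% of counts in batch 2, against 0.335, 0.27, 0.287 and 0.313% in batch 1, with no overlap. ND1, a subunit of respiratory complex I, had 220.3, 138, 144 and 165 CPM in batch 2, against 92.4, 76.1, 85 and 93.7 CPM in batch 1 (log2 fold change 0.94 with an SE of 0.15, adjusted p = 0.00366). COX1 of complex IV had 2909, 1764, 1828 and 1882 CPM in batch 2, against 1495, 1225, 1329.7 and 1422 CPM in batch 1. The COX1 log2 fold change was 0.62 (SE 0.16, adjusted p = 0.025). ATP6 was the gene that did not pass, with 475, 248, 303 and 289.9 CPM in batch 2, against 347, 279, 322 and 324 CPM in batch 1 (log2 fold change 0.05, adjusted p = 0.87). The count was 4 without batch 1 replicate 2 and 5 without batch 1 replicate 3 or without batch 1 replicate 4. COX1 was among those lost, with an adjusted p of 0.0771 without batch 1 replicate 2. Of 65 nuclear genes for oxidative phosphorylation none was higher and 4 were lower, 16 without batch 2 replicate 1.

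Of the 10 largest falls, 5 were in genes of detoxification. The gene pgp-8, a P-glycoprotein transporter (WBGene00004002; chromosome X, 10859301 to 10864422), had 0.742, 0.319, 0.589 and 0.465 CPM in batch 2, against 26.6, 31.8, 31.7 and 28.1 CPM in batch 1 (log2 fold change -5.80 with an SE of 0.24, adjusted p = 2.38e-05). The cytochrome P450 gene cyp-35A3 (WBGene00019565; chromosome V, 4022609 to 4024482) had 0.594, 1.37, 1.23 and 0.65 CPM in batch 2, against 50.4, 36.4, 28 and 38.2 CPM in batch 1. The cyp-35A3 log2 fold change was -5.31 (SE 0.32, adjusted p = 0.00013). Its relative cyp-35A4 had 0.0495, 0.364, 0.294 and 0.139 CPM in batch 2, against 10.6, 4.81, 5.69 and 6.59 CPM in batch 1 (log2 fold change -4.98). Another relative, cyp-35A2, had 19, 28.6, 25.7 and 24.8 CPM in batch 2, against 121, 96.1, 83 and 95.9 CPM in batch 1 (log2 fold change -2.01). These P450 genes are similar enough that some reads may be assigned to the wrong copy. The glutathione S-transferase gene gst-24 had 2.57, 1.18, 1.08 and 1.25 CPM in batch 2, against 17.9, 17.6, 16.22 and 12.9 CPM in batch 1 (log2 fold change -3.40 with an SE of 0.30, adjusted p = 0.000494). The glucuronosyltransferase gene ugt-31 had 4.01, 8.06, 7.06 and 2.93 CPM in batch 2, against 25.9, 24.9, 30.1 and 33.6 CPM in batch 1. The ugt-31 log2 fold change was -2.38 (SE 0.31, adjusted p = 0.00187). Of 50 ABC transporter genes, the family of pgp-8, 11 were lower and 4 higher, with 7 lower without batch 2 replicate 2 and 1 higher without batch 1 replicate 3. In the other families calls went both ways: 10 P450 genes were higher and 8 lower of 50, 5 glucuronosyltransferase genes higher and 7 lower of 57, and 3 glutathione S-transferase genes higher and 2 lower of 36. Without batch 2 replicate 1 the lower glucuronosyltransferase genes numbered 21 and the lower glutathione S-transferase genes 7. Without batch 2 replicate 2 the higher ones numbered 1 and 1, and without batch 1 replicate 2 there were 5 higher P450 genes.

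Other large falls were acd-1, an acid-sensitive sodium channel gene, with 0.346, 0.137, 0.0491 and 0.139 CPM in batch 2, against 8.81, 4.86, 6.55 and 7.33 CPM in batch 1 (log2 fold change -5.32 with an SE of 0.46, adjusted p = 0.000494). The gene cng-1, a cyclic nucleotide-gated channel gene, had 3.86, 4.73, 4.56 and 3.11 CPM in batch 2, against 43, 28.4, 30.1 and 39.7 CPM in batch 1. The cng-1 log2 fold change was -3.12 (SE 0.20, adjusted p = 0.00013). The gene parg-2, a poly(ADP-ribose) glycohydrolase gene, had 1.63, 2.09, 3.78 and 0.465 CPM in batch 2, against 23.8, 17, 15.4 and 17.6 CPM in batch 1 (log2 fold change -3.21 with an SE of 0.51, adjusted p = 0.00366). The gene ftn-1, the intestinal ferritin that stores iron, had 3.76, 1.27, 0.932 and 2.79 CPM in batch 2, against 10.3, 10.6, 18.2 and 10.1 CPM in batch 1. The ftn-1 log2 fold change was -2.49 (SE 0.45, adjusted p = 0.00558). The gene dod-24, a CUB-like gene of the response to infection, had 9.55, 14.3, 16 and 19.9 CPM in batch 2, against 99.7, 66.8, 94.2 and 90.3 CPM in batch 1 (log2 fold change -2.55 with an SE of 0.22, adjusted p = 0.00054). The gene irg-4, a gene of the same class, had 14.6, 23.2, 25.8 and 22 CPM in batch 2, against 70.4, 49.6, 68.9 and 47.8 CPM in batch 1. The irg-4 log2 fold change was -1.47 (SE 0.20, adjusted p = 0.00219). In each of these 6 genes every batch 2 library lay below every batch 1 library. Of the 21 infection response and CUB-like genes tested 5 were lower and 1 higher, but without batch 2 replicate 1 these counts were 7 and 9.

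F-box genes and pseudogenes were lower more often than the 10.8% of all genes. Of 219 tested F-box genes, a family that has expanded in nematodes and whose members recruit targets for ubiquitin ligases, 45 were lower (20.5%) and 8 higher, with a median log2 fold change of -0.39. Without batch 1 replicate 2 these counts were 30 and 3. The gene fbxb-1 had 1.09, 2.09, 1.52 and 2.23 CPM in batch 2, against 5.52, 7.8, 6.02 and 7.86 CPM in batch 1 (log2 fold change -1.97 with an SE of 0.27, adjusted p = 0.00187). The gene fbxa-47 had 0.198, 0.273, 0.196 and 0.279 CPM in batch 2, against 1.06, 1.42, 1.02 and 1.48 CPM in batch 1. The fbxa-47 log2 fold change was -2.36 (SE 0.29, adjusted p = 0.00141). Of 436 annotated pseudogenes 80 were lower (18.3%) and 21 higher, with 50 lower without batch 1 replicate 2. By chromosome, X had the largest share called higher of the nuclear chromosomes. Of its 1974 tested genes 490 were higher (24.8%) and 52 lower (2.63%), with a median log2 fold change of 0.25, against medians between -0.05 and 0.02 on the 5 autosomes. The count of higher genes on X was 321 without batch 1 replicate 3, and that of lower genes 161 without batch 2 replicate 1. The median of chromosome X stayed between 0.23 and 0.29 with any 1 library left out.

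Libraries that did not enter the fit between the DMSO groups allowed a second look at the batches, although every one of them was treated. The CPM values of treated libraries were scaled over all 36 libraries together, unlike those of the 8 DMSO libraries above. For each gene the 8 treated libraries of batch 2 (doxycycline or teriflunomide) were set against the 20 of batch 1 (terbinafine, miglustat, BAY2402234, brequinar or dhod-1 RNAi). Of the genes called higher 354 lay apart in the same direction in the treated libraries too (16.8%, where 14.7% of all tested genes lay apart that way), and of those called lower 197 did (12.9%, against 6.51% of all). Among the members of the lists, 9 of the 9 mitochondrial DNA genes called higher were also apart and higher, 29 of 45 F-box genes called lower were apart and lower, and 18 of 47 neuropeptide genes called higher were apart and higher. None of the 23 collagens and 1 of the 18 cuticlins called higher was. The gene pgp-8 had 3.57, 7.9 and 13.8 CPM in the 8 treated libraries of batch 2 (lowest, median and highest), against 16.4, 20.7 and 42.8 CPM in the 20 of batch 1. The gene cyp-35A3 had 0.106, 0.293 and 0.62 CPM in the 8 treated libraries of batch 2 (lowest, median and highest), against 7.26, 32.3 and 192 CPM in the 20 of batch 1. ND1 had 219, 313 and 507 CPM in the 8 treated libraries of batch 2 (lowest, median and highest), against 49.2, 89.3 and 139 CPM in the 20 of batch 1. For sqt-3 the treated libraries overlapped, with 10.4, 15.4 and 101 CPM in the 8 treated libraries of batch 2 (lowest, median and highest), against 3.3, 9.89 and 64.8 CPM in the 20 of batch 1. The treatments differ between the batches, so batch and treatment cannot be told apart in these values.

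**Figure D4:**
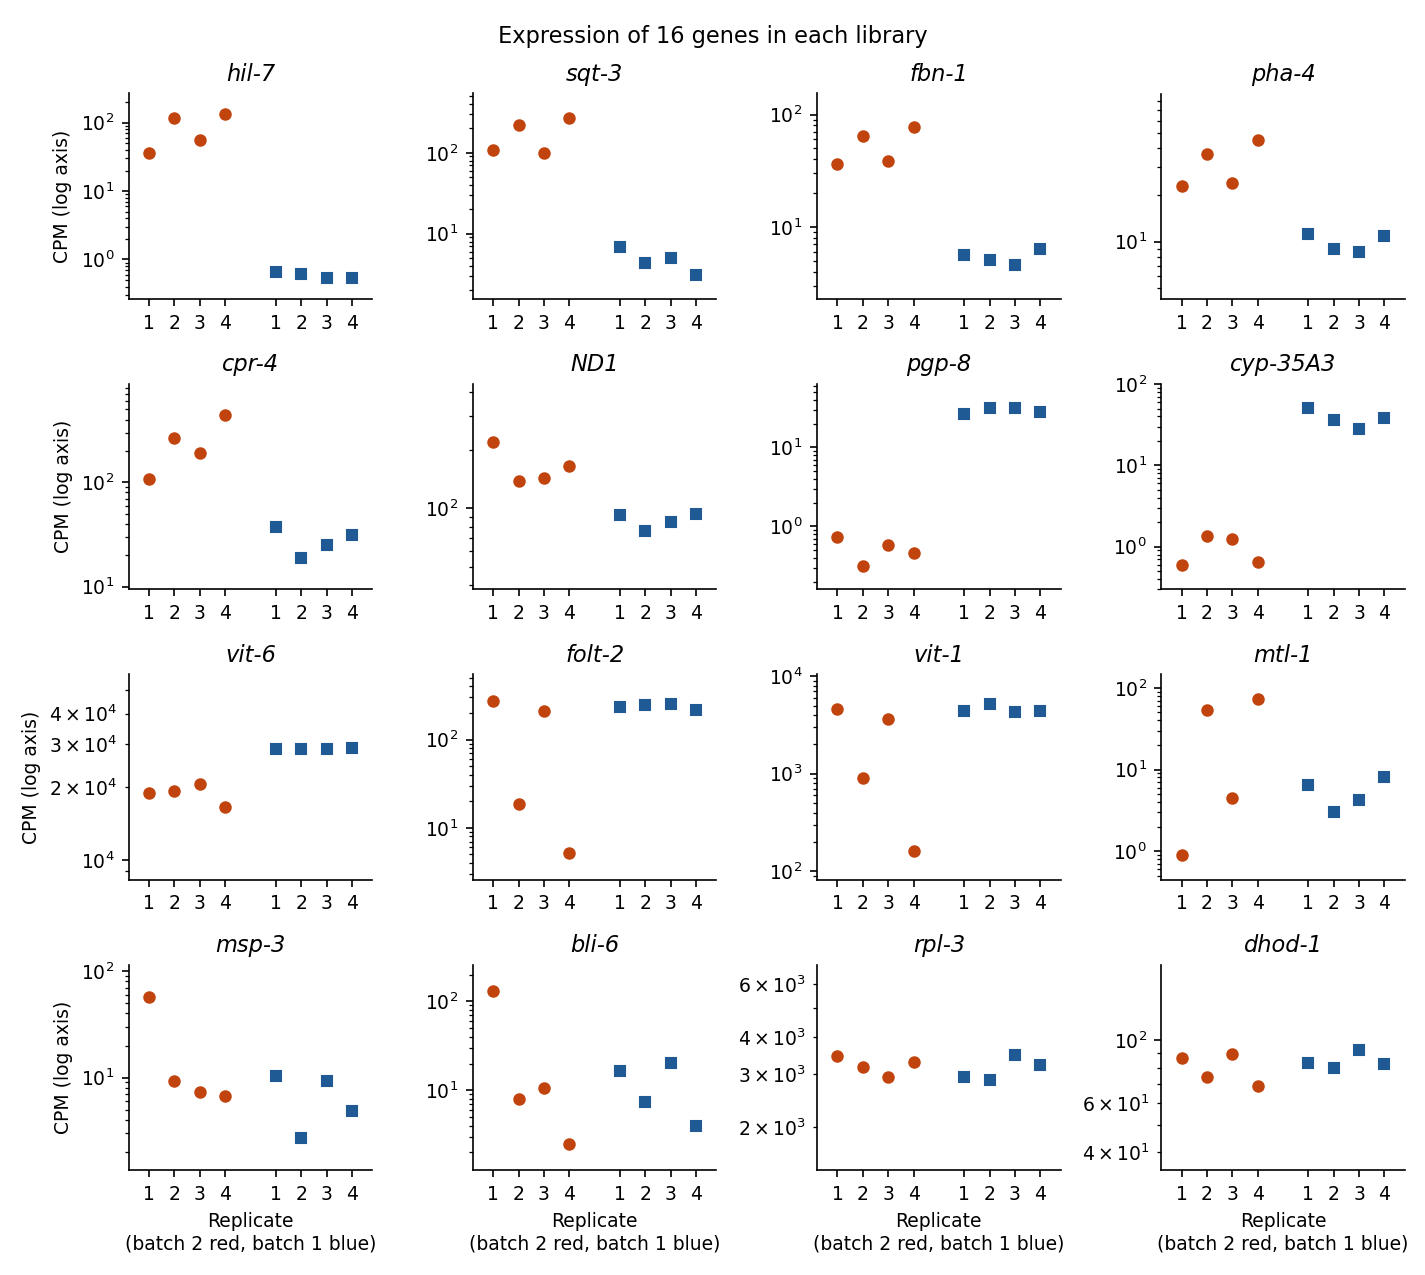
CPM on a log axis for 16 genes in each library (replicates 1 to 4; batch 2 as red circles on the left of each panel, batch 1 as blue squares on the right). The first 6 genes are higher in every batch 2 library, pgp-8, cyp-35A3 and vit-6 lower; in folt-2, vit-1 and mtl-1 replicates 2 and 4 of batch 2 part from replicates 1 and 3, in msp-3 and bli-6 replicate 1 stands alone, and rpl-3 and dhod-1 overlap.

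The spread between replicates was larger in batch 2. Over the 9012 genes at 5 CPM or more the median SD of log2 CPM between the 4 libraries was 0.17 in batch 2 and 0.10 in batch 1, and the SD was the larger one in batch 2 for 7040 genes (78.1%). An SD of at least 1 was found for 378 genes in batch 2, for 68 in batch 1 and for 44 in both, while 1447 genes stayed below 0.1 in both. Among the 9 groups of the series, over the same genes and with all libraries scaled together, only dhod-1 RNAi had a larger median SD (0.22) than batch 2 DMSO (0.17), and the least variable group was brequinar (0.0944). Of the 451 genes that varied most in each batch (the top 5%), 226 were shared, which is 50.1% of each list. Over the 451 genes of batch 2's list, replicate 1 was the farthest from the median in 382, the highest library in 330 and the lowest in 99.

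Sperm genes were among the most variable in both batches. All 26 major sperm protein genes at 5 CPM or more belonged to the most variable 5% in batch 2 and also in batch 1, with median SDs of 1.52 in batch 2 and 0.67 in batch 1. Together the family took 0.231, 0.0316, 0.0314 and 0.0277% of counts in batch 2, against 0.0419, 0.0149, 0.0347 and 0.0215% in batch 1. The gene msp-3 (WBGene00003424; chromosome II, 4785898 to 4786281) had 57.4, 9.29, 7.36 and 6.69 CPM in batch 2, against 10.3, 2.68, 9.29 and 4.85 CPM in batch 1. The gene gsp-3, a sperm phosphatase gene, had 51.2, 6.78, 6.18 and 5.62 CPM in batch 2, against 8.31, 2.58, 8.06 and 5.17 CPM in batch 1. The high value belonged to replicate 1 of batch 2 in each case, and without it the median SD of batch 2 fell to 0.21 and the median log2 fold change of the family was -0.03 in place of 1.46. Of 28 tested members 1 was called higher, msp-63, with 3.91, 1.23, 1.28 and 1.3 CPM in batch 2, against 0.557, 0.304, 0.537 and 0.0527 CPM in batch 1, and none was without batch 1 replicate 2. Replicates 2 and 4 of batch 1 held the lowest shares of that batch. Major sperm protein genes are near-identical copies, and the sum is safer than any single one.

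Cuticle collagens were variable as well. Of 83 cuticle collagens at 5 CPM or more, 63 were in the most variable 5% of batch 2 and 50 in that of batch 1. The gene bli-6 (WBGene00000256; chromosome IV, 6377065 to 6378168), a collagen of the cuticle, had 129, 8.06, 10.5 and 2.51 CPM in batch 2, against 16.6, 7.34, 20 and 3.96 CPM in batch 1. The gene rol-1 had 100.2, 5.65, 6.47 and 4.09 CPM in batch 2, against 5.67, 3.39, 8.97 and 0.0527 CPM in batch 1. The gene col-138, the gene with the largest SD of batch 1, had 87.5, 5.37, 6.47 and 2.55 CPM in batch 2, against 5.62, 3.09, 10.6 and 0 CPM in batch 1. In batch 2 replicate 1 stood far above the others, and in batch 1 replicate 4 was the lowest, with col-138 at 0 counts there. The same held for col-63, with 73.8, 5.19, 5.79 and 2.42 CPM in batch 2, against 1.98, 2.28, 9.35 and 0.0527 CPM in batch 1, and for the hedgehog-related gene grl-16, with 87.3, 22.6, 14.4 and 25 CPM in batch 2, against 8.87, 3.8, 10.2 and 0.475 CPM in batch 1. None of these 5 passed the test between batches, with adjusted p-values between 0.0539 and 0.313.

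Other genes divided batch 2 into pairs, with replicates 2 and 4 on one side and replicates 1 and 3 on the other. The gene folt-2 (WBGene00018138; chromosome V, 2872465 to 2875600), a folate transporter-like gene, had 273, 18.8, 213 and 5.16 CPM in batch 2, against 230.5, 248, 252 and 217 CPM in batch 1, so that batch 1 and replicates 1 and 3 of batch 2 were alike and the other 2 libraries were low. The gene pmp-5, a peroxisomal transporter-like gene, had 109.7, 6.15, 25.9 and 3.9 CPM in batch 2, against 111, 109.9, 133 and 83.8 CPM in batch 1. Here replicate 3 lay well below replicate 1 and above replicates 2 and 4, and replicate 1 alone was like batch 1. Without batch 2 replicate 1 pmp-5 was lower (log2 fold change -3.185, adjusted p = 0.0188), though not with all libraries (adjusted p = 0.2245). The adult collagen col-93 had 882, 69.8, 441 and 28.3 CPM in batch 2, against 571, 553, 619 and 539 CPM in batch 1. The gene act-5, the actin of the intestinal brush border, had 552, 165, 488 and 162 CPM in batch 2, against 476, 449, 512 and 419 CPM in batch 1. The gene mtl-1, a metallothionein gene (WBGene00003473; chromosome V, 6691371 to 6691863), went the opposite way, with 0.891, 53.2, 4.46 and 73.3 CPM in batch 2, against 6.54, 2.99, 4.24 and 8.07 CPM in batch 1. The long non-coding RNA gene tts-1 did so too, with 108, 697, 203 and 965 CPM in batch 2, against 163, 142, 116 and 145 CPM in batch 1. The gene acdh-2, an acyl-CoA dehydrogenase gene, had 26.8, 2.78, 24.9 and 1.3 CPM in batch 2, against 1.67, 1.98, 1.67 and 1.69 CPM in batch 1, so here replicates 1 and 3 were the ones that stood apart from batch 1. It was called with all libraries (adjusted p = 0.0458) and in 2 of the 8 fits that left out 1 library, and the adjusted p was 0.11 without batch 2 replicate 1. The SDs of log2 CPM of folt-2 were 2.76 in batch 2 and 0.10 in batch 1, and those of mtl-1 were 2.96 in batch 2 and 0.63 in batch 1. Over the 451 most variable genes of batch 2 the 2 highest libraries were replicates 1 and 3 in 205 (45.5%, against 28.6% of all 9012 genes), replicates 1 and 2 in 119 (26.4%, against 6.52%) and replicates 2 and 4 in 87 (19.3%, against 26.3%). What set the pairs apart is not in the labels, and it was not tested.

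The median SD of genes of the translation and respiration machinery can be read against that of the most abundant of the 4 equal groups by mean level, which was 0.12 in batch 2 and 0.08 in batch 1. The median SD of the 79 cytosolic ribosome genes was 0.13 in batch 2 and 0.12 in batch 1, that of the 69 mitochondrial ribosome genes 0.09 in batch 2 and 0.09 in batch 1, and that of the 65 nuclear oxidative phosphorylation genes 0.14 in batch 2 and 0.06 in batch 1. The mitochondrial DNA genes at 5 CPM or more had a larger one, 0.36 in batch 2 and 0.14 in batch 1. Among single genes, gld-2 had SDs of 0.02 in batch 2 and 0.12 in batch 1, and wht-2, a transporter of the ABC class, had 0.04 in batch 2 and 0.04 in batch 1. The gene wht-2 was nonetheless lower, with 86, 88.6, 91.6 and 88.9 CPM in batch 2, against 106, 112, 105 and 106 CPM in batch 1 (log2 fold change -0.27 with an SE of 0.05, adjusted p = 0.00405), a small difference between groups that did not overlap.

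**Figure D5:**
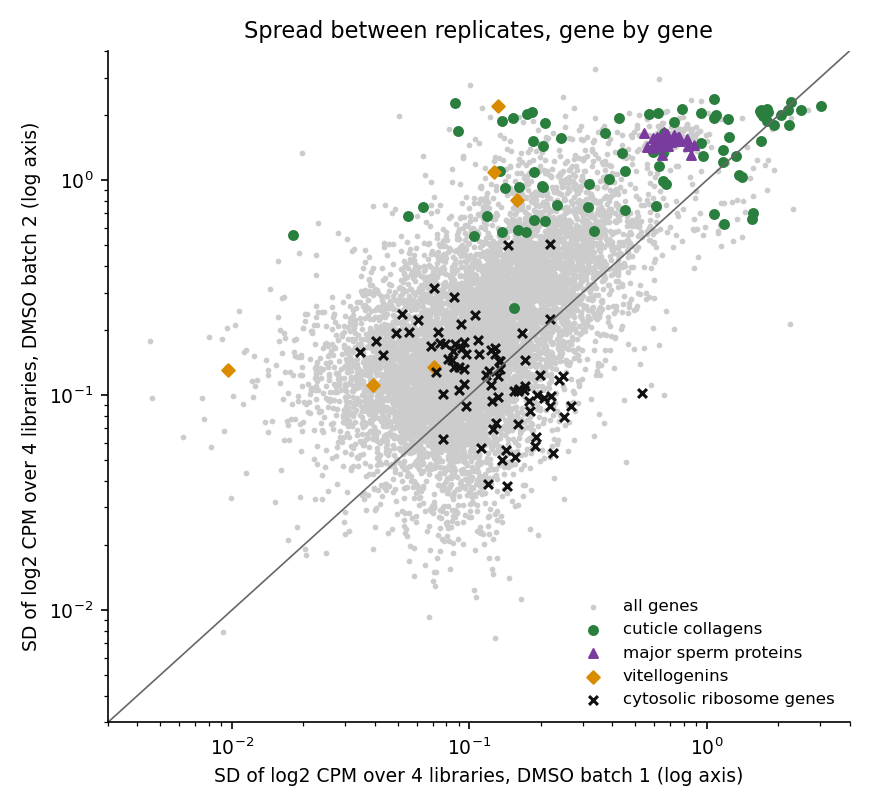
SD of log2 CPM over the 4 libraries of DMSO batch 2 (vertical, log axis) against that of DMSO batch 1 (horizontal, log axis) for 9012 genes in grey, with cuticle collagens, major sperm proteins, vitellogenins and cytosolic ribosome genes marked. Points above the line of equality, 78.1% of genes, varied more in batch 2, and collagens and major sperm proteins lie at the top right, variable in both batches.

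Widely used stress reporter genes, and the target of several agents of the series, were looked up one by one. The gene hsp-6, the mitochondrial chaperone whose gene reports the mitochondrial unfolded protein response, had 481, 384, 442 and 390.0 CPM in batch 2, against 497, 542, 539 and 508 CPM in batch 1 (log2 fold change -0.30 with an SE of 0.08, adjusted p = 0.0301). That call held in 3 of the 8 fits that left out 1 library. The adjusted p was 0.0862 without batch 2 replicate 2 and 0.005 without batch 2 replicate 1. The gene hsp-60, its partner, had 339, 224, 282 and 209 CPM in batch 2, against 315, 371, 405 and 343 CPM in batch 1 and did not pass (adjusted p = 0.0668). Without batch 2 replicate 1 it was lower (adjusted p = 0.00369). Of the 21 genes listed for that response 6 were lower and none higher, 2 without batch 2 replicate 2. The gene hsp-4, the chaperone gene of the endoplasmic reticulum stress response, had 523, 378, 718 and 354 CPM in batch 2, against 415, 433, 430.4 and 441 CPM in batch 1, groups that overlap. The heat shock gene hsp-70 had 40.1, 11.8, 18.5 and 10 CPM in batch 2, against 22.7, 61, 36.3 and 14.1 CPM in batch 1. The small heat shock gene hsp-16.2 had 25.2, 10.7, 12.3 and 7.29 CPM in batch 2, against 19.5, 44.3, 23.7 and 16.1 CPM in batch 1, with replicate 2 the highest of batch 1 in both. The adjusted p of hsp-16.2 was 0.167 with all libraries and 0.0333 without batch 2 replicate 1, while hsp-70 passed in none of these fits. The oxidative stress reporter gst-4 had 16.1, 4.01, 6.67 and 6.64 CPM in batch 2, against 14.7, 11.7, 14.9 and 13.3 CPM in batch 1. It did not pass with all libraries (adjusted p = 0.202). Without batch 2 replicate 1 it was lower (log2 fold change -1.22, adjusted p = 0.00131). The lipid desaturase gene fat-7 was called higher, with 34.4, 6.42, 10 and 5.71 CPM in batch 2, against 4.36, 3.65, 3.28 and 3.48 CPM in batch 1. The fat-7 log2 fold change was 1.93 (SE 0.58, adjusted p = 0.0406). Replicate 1 of batch 2 held the high value. The call held in 4 of the 8 fits that left out 1 library, and without batch 1 replicate 3 the adjusted p was 0.105. Without batch 2 replicate 1 the log2 fold change of fat-7 fell to 1.01, and its adjusted p was 0.00717. The gene dhod-1, the target of the inhibitors used elsewhere in the series, had 86.8, 74.1, 89.5 and 69.1 CPM in batch 2, against 83.4, 80, 92.8 and 82.7 CPM in batch 1 and did not pass (adjusted p = 0.512).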

How the data were processed

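Total RNA of whole day 1 adults (TriPure reagent, then column clean-up) was sequenced on a BGISEQ-500, per the labels' protocols. The authors deposited raw counts per gene, and the submitters' processing notes name FastQC, STAR 2.7.3a, DESeq2 1.40.2 and build WBcel235. The counting tool and its strand setting are not given in the sources used here. From the deposited counts of the 8 DMSO libraries, genes were kept by filterByExpr (minimum count 10), scaled by TMM and tested with edgeR 4.0.16's quasi-likelihood test (R 4.3.3), batch 2 minus batch 1, with Benjamini-Hochberg adjustment over all genes tested. Spread is the SD of log2 CPM (prior count 2) over the 4 libraries of a batch, for genes with a mean of at least 5 CPM. Of 27782 gene identifiers 25676 had a name, and coordinates come from Ensembl release 115.

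Gene groups are 64 lists compiled by hand, with annotation classes and chromosomes. The members and lists were chosen with earlier results of these data known. Genes are named by rank: the 10 largest rises and falls, the 10 most variable genes of each batch, the leading members of each list by p or SD, and a panel of reporters. Markers of other cell types are named as well, and gene examples were picked among these after their values were seen. On counts simulated for this comparison over 13887 genes, the test recovered 18.0%, 44.0%, 81.6% and 96.0% of genes changed by 0.5, 1, 2 and 3 on the log2 scale, and 3.25% of its calls were false. In that simulation 50, 50, 49 and 50 genes were changed by these amounts. Each gene was drawn independently, without shifts shared by many genes of a library. The 3.25% is therefore not the share of false calls among the real ones. The labels call the replicates biological without saying whether cultures were separate. The p-values set the difference between the groups against the spread of libraries within them. Batches were not replicated, so the p-values do not measure how much batches vary. Other normalizations, filters, tools and sets of libraries were tried, DESeq2 1.42.0 among them.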

Additional observations from a re-analysis of the deposited data

Results flagged for a closer look

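In 204 groups of 4 libraries examined, 24 had 1 library far from the other 3 relative to the range of the group. Chance flags about 1 in 20 groups of genes not chosen for their spread, and many of these genes were named for a large spread or a small p, so the number is a description. Replicate 1 of batch 2 was that library in 14. It was the high one for the sperm genes msp-3 (57.4 CPM), msp-63 (3.909 CPM) and gsp-3 (51.17 CPM), for the share of counts of the major sperm proteins (0.2308%), for the collagen genes bli-6 (129.4 CPM), col-138 (87.54 CPM), col-63 (73.78 CPM) and rol-1 (100.2 CPM), and for grl-16 (87.34 CPM) and fat-7 (34.39 CPM). It also stood apart for the share of mitochondrial DNA genes (0.7029%), for COX1 (2909.2 CPM), for asp-14 (93.33 CPM) and for gst-24 (2.573 CPM). No cause was tested.

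The other 10 flags were spread over other libraries. In batch 2, replicate 3 stood apart for cpr-5 (279.8 CPM). In batch 1, replicate 1 did so for dpy-10 (6.383 CPM), replicate 2 for acdh-2 (1.975 CPM), ges-1 (13.52 CPM), vit-1 (5234.7 CPM) and wht-2 (111.9 CPM), replicate 3 for ftn-1 (18.21 CPM), ins-2 (0.2686 CPM) and pqn-73 (0.1611 CPM), and replicate 4 for col-99 (6.119 CPM).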

How the results depend on the processing

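The number of genes that differed between DMSO batch 2 and batch 1 stayed within 1.5 times of 3633 with DESeq2's size factors (3399), with DESeq2 in place of edgeR (4142), and with no filter on low counts (3504). With genes of at least 5 CPM alone it was 1996, of which 1258 were higher and 738 lower, and 599 passed 2-fold (528 higher, 71 lower); fewer genes were tested there. In a fit of all 36 libraries it was 5576, with 3749 higher, and 2918 passed 2-fold (2396 higher, 522 lower). Leaving out 1 library gave 2220 to 4790 genes, 789 to 2083 of them lower, and 213 to 517 lower by 2-fold. Without batch 2 replicates 1 and 3, a setting chosen after seeing the data, 6806 genes differed (3661 higher, 3145 lower). Of these 2847 passed 2-fold (2174 higher, 673 lower). The gene hsp-4, not called with all libraries, was then called lower by the same edgeR test. Its log2 fold change was -0.2149 (adjusted p = 0.0103) in place of 0.20. The cause was not tested. With the replicate number as a block 3328 genes differed. The deviations of same-numbered libraries from the mean of their own batch correlated at 0.37, 0.06, -0.09 and 0.37. The numbers were therefore not taken as a pairing. Genes at low counts have imprecise folds, and levels are relative to each library's total.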
